A study of Arabidopsis thaliana with 14 samples.

Results

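The loci described here are the regions of chromosomes 1 to 5 that the authors listed for gFLM-GFP in a chromatin immunoprecipitation experiment read by sequencing (ChIP-seq), 19879 of the 43690 regions in the deposited tables of 3 FLM constructs. They were taken whole, without selection on their values, and 6 of the 14 libraries of the series measure them. Of the 19879 regions, 5216 held enough reads to be tested and 124 were called higher in gFLM-GFP. The 10 regions with the best deposited rank were all among these, and the other 114, with the genes around them, are the main subject.

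The gFLM-GFP group holds 3 libraries from Arabidopsis thaliana Columbia-0 seedlings that carry FLM fused to green fluorescent protein, precipitated with an anti-GFP antibody. The control group holds 3 libraries in which FLM had no tag and the same antibody protocol was used. Both groups were grown for 15 days under long days at 16 °C and were collected 8 h after lights on (zeitgeber time 8 h). Every GFP library carries the code DP28 and every control library the code DP34, so any difference between these 2 sources besides the tag cannot be told apart from binding. The labels do not give the promoter of the construct, the background genotype beyond the ecotype, or whether replicates were separate plant pools. If they were not, the p-values rest on technical spread alone. The antibody is not named in the labels of GFP replicate 2. Whole seedlings were used, so binding in a few cells and weak binding in many cells cannot be told apart.

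FLM, also called MAF1, is a MADS-box transcription factor of the FLC clade that delays flowering, above all in cool conditions. It acts together with SVP, another MADS-box repressor, and its transcripts are spliced differently at different temperatures. MADS-box proteins bind DNA as dimers and tetramers at short AT-rich elements called CArG boxes. Known targets of FLC-clade and SVP complexes include SOC1 and FT, which promote flowering, and SEP3, which acts in floral organs.

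The 6 libraries differed widely in reads. The deposited regions held 435306, 74499 and 155359 reads in gFLM-GFP replicates 1 to 3, against 180798, 17161 and 195081 reads in control replicates 1 to 3. These are sums over regions and not sequencing depths. GFP replicate 2 had no read in 15.9% of the regions and control replicate 2 had none in 52.8%, whereas the other 4 libraries had none in 4.61% or less. In pair 2 a single read therefore moves a ratio by much more than in the others. Binding is given as the log2 ratio of a GFP library to the control library of the same number, with 1 read added to each and scaled by the reads that each library had in all regions. Values after ± are SD over the 3 pairs (n = 3), and p-values are from the quasi-likelihood test of edgeR with the replicate number as a block, adjusted over all 5216 tested regions by the Benjamini-Hochberg method. The authors called the regions on these same libraries, so the test only grades how well GFP and control counts are separated and is not an independent test of binding.

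By this test 124 regions, 2.38 percent of those tested, were higher in gFLM-GFP, and 4, or 0.0767 percent, were lower. Of the 124, 114 lay outside the 10 best ranked. The block matters for that number. Without it 25 regions were called higher and 0 lower, among them all 10 best ranked and the 15 regions with the lowest p outside them. The count of calls also rested on pairs 1 and 3: without pair 1 edgeR called 0 regions (88 higher and 24 lower at an unadjusted p under 0.05), and without pair 3 it called 8. Over the 112 of the 114 regions that were also tested without pair 1, the median fitted log2 fold change was 1.71 without it, against 2.08 with all pairs. Over all 114 it was 2.71 without pair 3 and 2.09 without pair 2, against 2.09 with all pairs. Each fit without a pair had 4 libraries and 1 residual degree of freedom, against 6 and 2 with all pairs. The 114 were called with all pairs, so these medians come from the libraries that chose the regions. A plain rule with no test, a ratio above 1 in each of the 3 pairs, was met by 92 of all 19879 regions (0.463 percent), and 66 of the 114 met it.

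**Figure D1:**
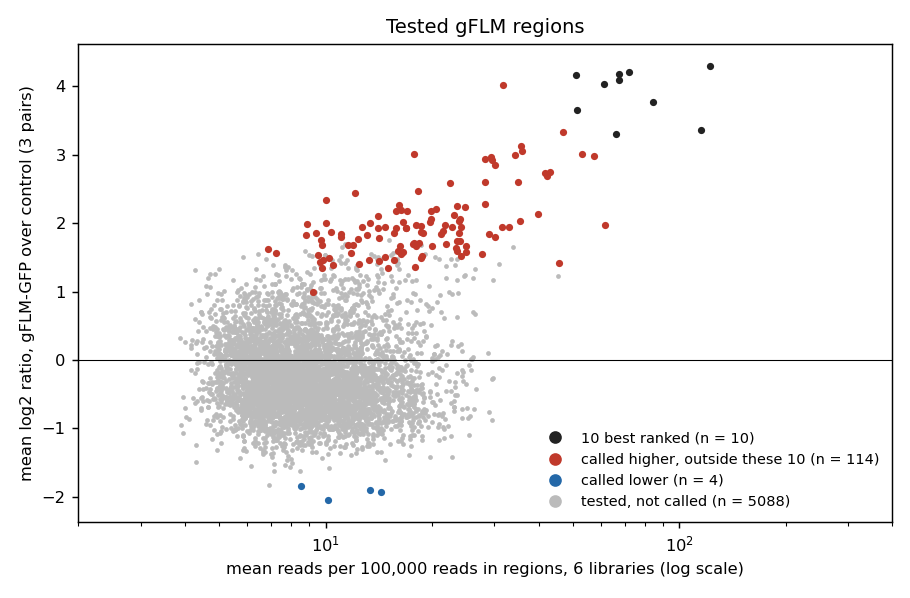
Each point is a tested region, with its mean reads per 100000 reads in regions over the 6 libraries on a log axis and its mean log2 ratio of gFLM-GFP to control on the vertical axis. The 10 best ranked regions lie between 3.30 and 4.30, the 114 others called higher between 0.99 and 4.01, and the 4 called lower fall below 0.

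The ratios of the 114 regions overlapped those of the 10 best ranked at the upper end. Their mean log2 ratio had a median of 1.88 and ran up to 4.01, against a median of -0.27 over all tested regions, while the 10 best ranked had a median of 4.06. These ratios come from the comparison that chose the regions and are given as a description. Reads per region had a median of 144.5 in GFP replicate 1, 27.0 in GFP replicate 2 and 35.0 in GFP replicate 3, against 8.0, 1.0 and 16.0 in control replicates 1 to 3. In 42 of the 114 the second control library had no read. After scaling, all GFP libraries stood above all control libraries at 104 of the 114 regions (91.2%), against 428 of the 5216 tested (8.21 percent).

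The 3 pairs did not weigh alike. The median ratio of the 114 was 2.65 in pair 1, 1.72 in pair 2 and 1.51 in pair 3. The ratio exceeded 1 at all 114 in pair 1, at 88 in pair 2 and at 88 in pair 3, and pair 1 was the highest of the 3 at 87. Of all 5216 tested regions it exceeded 1 at 765, 541 and 346 in pairs 1 to 3, and pair 1 was the highest at 1990. Pair 2 was at or below 0 at 4 of the 114 regions. They lay upstream of NRT2.2, upstream of PIP2E, past the end of DPA4 and between AT5G51812 and PGM. The last lay 1290 bp past the end of AT5G51812 and 3305 bp past the end of PGM. The 4 were picked out after their values were seen. Their second control library held 2 to 5 reads, which at its depth is a high scaled value. At PIP2E, for example, the region 37 bp upstream of this aquaporin gene (chromosome 2, 16291303 to 16291577) held 149, 18 and 24 reads in gFLM-GFP, against 4, 5 and 12 in the control, with ratios of 3.64, -0.46 and 1.27.

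Among 48 genes of flowering time, 20 had a tested region between 3 kb upstream of their start and 1 kb past their end, and 4 of these had 1 called higher: ATC, SOC1, SVP and SMZ. Over all genes with a tested region in this window 169 of 7623 did (2.22 percent). The best region per gene had a median ratio of 0.44 over the 20 genes and of -0.25 over the 7623. The other lists below also had medians above that of all genes. The list was compiled with FLM targets and results of these data known. The lists below were also chosen with results of these data known. The counts of each list therefore describe that list and test nothing.

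ATC, a relative of TFL1 that represses flowering, had the strongest of these regions, 1552 bp upstream of its start on chromosome 2 (11771531 to 11771867). It held 368, 69 and 125 reads in gFLM-GFP replicates 1 to 3, against 7, 2 and 15 in the control. All GFP libraries were far above all controls, and the ratio was 3.33 ± 0.92 (adjusted p = 4.54e-09). The SOC1 region lies 114 bp upstream of this promoter of flowering (chromosome 2, 18810997 to 18811327). It held 248, 45 and 70 reads in gFLM-GFP, against 14, 0 and 14 in the control, and the 3 ratios of 2.79, 3.41 and 2.57 were close together (mean 2.92 ± 0.43, adjusted p = 8.31e-06).

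SVP and SMZ were called at lower ratios. The SVP region is centred in the 5' UTR of this MADS-box repressor of flowering (chromosome 2, 9579994 to 9580305). It held 187, 36 and 37 reads in gFLM-GFP, against 17, 2 and 15 in the control, without overlap after scaling (1.73 ± 0.33, adjusted p = 0.0106). The SMZ region (chromosome 3, 20378947 to 20379290) lies 2596 bp upstream of SMZ, an AP2-like repressor of flowering, and 2389 bp upstream of TON1A, a gene of cortical microtubule organisation. It held 171, 29 and 40 reads in gFLM-GFP, against 10, 4 and 16 in the control. The groups were close in pair 2, with a ratio of 0.47 beside 2.70 and 1.60 in the other pairs (adjusted p = 0.0130). Without the block neither was called (adjusted p of 0.474 for SVP and 0.704 for SMZ).

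The other 16 flowering genes with a tested region had none called. TOE3, an AP2-like repressor, stood at 1.15 ± 0.31 (adjusted p = 0.245), TEM2, which represses FT, at 1.14 ± 1.07 (0.174) and AP1, a floral meristem gene, at 1.10 ± 0.78 (0.450). SNZ, the close relative of SMZ, stood at 0.92 ± 1.75 (0.463). FT, the mobile flowering signal, had 1 region, centred in an intron, at 0.49 ± 2.46 (0.795), a value whose SD is several times its mean. FLC and the FLM relatives MAF2, MAF3, MAF4 and MAF5 had best regions from -0.62 (MAF5) to 0.39 (MAF3 and MAF4, which share that region), all with an adjusted p above 0.7. No region of this table was assigned to FLM itself.

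Of 17 genes of floral organs and fruit, 8 had a tested region. Of these 8, 2 had at least 1 called higher, SEP3 and ALC, against 2.22 percent of all genes. SEP3 had a called region besides the one that belongs to the 10 best ranked. The second lies 523 bp upstream of SEP3 (chromosome 1, 8596418 to 8596839) and held 79, 10 and 28 reads in gFLM-GFP, against 13, 0 and 9 in the control. The groups did not overlap, and the ratio of 1.48 ± 0.33 (adjusted p = 0.0381) was well under the 3.76 ± 0.58 of the region 2712 bp upstream (1.39e-11). The call on the nearer region held under 1 alternative, TMM (adjusted p = 0.0191). It ended without the block (0.652), without the filter on low counts (0.165) and without pair 1 (0.996), pair 2 (0.0636) or pair 3 (0.489), while DESeq2 and the stricter filter gave no value for it.

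ALC encodes a bHLH factor needed for fruit opening, and its region lies 150 bp upstream (chromosome 5, 26786369 to 26786698). It held 275, 32 and 143 reads in gFLM-GFP, against 8, 1 and 12 in the control (3.13 ± 1.05, adjusted p = 1.87e-08), and each scaled GFP value exceeded each control value. SHP2 and AP3, other MADS-box genes of the flower, stood at 1.48 ± 0.88 (0.194) and 1.40 ± 0.75 (0.128) and were not called. A called region 1573 bp past the end of PI lies outside the window of that gene and 570 bp upstream of DIN10, which encodes a raffinose synthase-like protein. It held 190, 45 and 26 reads in gFLM-GFP, against 13, 2 and 20 in the control (1.67 ± 0.92, adjusted p = 0.0271). Another called region lies 4802 bp upstream of SPT, the bHLH relative of ALC, and also outside the window (2.17 ± 0.70, adjusted p = 0.00387). The regions at PI and SPT were singled out after their values were seen.

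In the cold list, 8 of 12 genes had a tested region and 1 (12.5%) was called, against 2.22 percent of all genes. It was CBF1, an activator of cold-induced genes. Its region (chromosome 4, 13023431 to 13023884) lies 932 bp upstream of CBF1 and 913 bp upstream of RS40, a splicing factor gene on the other side. It held 299, 82 and 74 reads in gFLM-GFP, against 20, 1 and 19 in the control (2.69 ± 0.52, adjusted p = 2.33e-05). CBF2 and CBF3, next to it on the chromosome, had best regions at 0.87 ± 0.29 (0.473) and 0.74 ± 0.74 (0.552). In the clock list 7 of 19 genes had a tested region and 1 (14.3%) was called, against 2.22 percent of all genes. It was RVE2, a MYB-like gene of the CCA1 family. Its region 2599 bp upstream (chromosome 5, 14755470 to 14755906) held 177, 31 and 42 reads in gFLM-GFP, against 14, 3 and 20 in the control (1.52 ± 0.72, adjusted p = 0.0252; 0.704 without the block and 0.0542 without the filter on low counts). CCA1 stood at 0.05 ± 0.16 (0.961).

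In the light list 14 of 20 genes had a tested region. The 1 called (7.14%, against 2.22 percent of all genes), SPA2, belongs to the 10 best ranked. PIF3, a bHLH factor of phytochrome signalling, came near the threshold at 1.51 ± 0.92 (adjusted p = 0.0587). None was called of 10 gibberellin genes, 10 jasmonate genes, 3 abscisic acid genes and 8 highly transcribed genes with a tested region. At the 2.22 percent of all genes, counts of 0 in lists this small do not set them apart. The median of the best regions was 0.30 over the highly transcribed genes, against 0.44 over the flowering genes and -0.25 over all genes, and UBQ10 was the highest of the 8 at 1.12 ± 0.80 (0.351). Every list had a median above that of all genes, from -0.03 (gibberellin) to 0.65 (abscisic acid). RGA, a DELLA repressor of gibberellin signalling, was the highest of its list at 1.12 ± 0.38 (0.252), and GA3OX2 the lowest at -1.12. JAZ9, a repressor of jasmonate signalling, was the highest of a list with a median of 0.15, at 1.25 ± 0.77 (0.303). The lowest there was JAZ5 at -0.97.

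**Figure D2:**
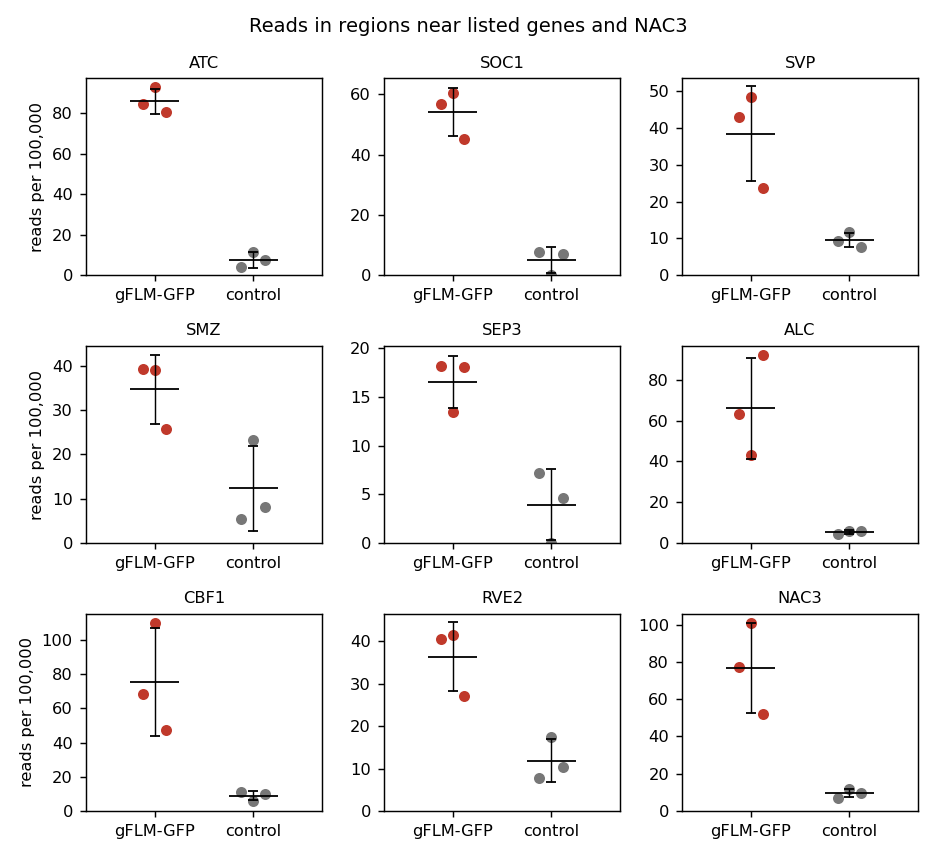
Reads per 100000 reads in regions in each of the 3 gFLM-GFP libraries (left) and the 3 control libraries (right) for the strongest called region outside the 10 best ranked at 8 listed genes and NAC3, with bars at the mean and whiskers of SD. At ATC the GFP libraries lie between 80.5 and 92.6 and the controls between 3.87 and 11.7, whereas at SMZ the highest control (23.3) comes close to the lowest GFP library (25.7).

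The 25 regions with the lowest p outside the 10 best ranked went well past the flowering lists. The lowest p belonged to a region 930 bp past the end of ACA7, a calcium-pumping ATPase gene, and 3 bp past the end of AT2G22955, a long non-coding RNA gene (chromosome 2, 9770514 to 9770879). It held 290, 64 and 51 reads in gFLM-GFP, against 3, 0 and 6 in the control. Its ratio of 4.01 ± 0.85 (adjusted p = 6.73e-10) was within the range of the 10 best ranked, and it was the 1 region outside them that was called without pair 3.

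Of the regions next to transcription factor genes, that 38 bp past the end of bZIP44 (chromosome 1, 28292872 to 28293222) held 328, 46 and 78 reads in gFLM-GFP, against 7, 1 and 17 in the control (3.00 ± 0.95, adjusted p = 6.61e-07). A region 29 bp upstream of BZIP49 (chromosome 3, 20988042 to 20988444) held 367, 134 and 79 reads in gFLM-GFP, against 14, 1 and 31 in the control (2.99 ± 1.20, adjusted p = 3.24e-06). Both genes belong to the basic leucine zipper family, and at both the GFP and control libraries did not overlap.

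A region 728 bp past the end of NAC3, a stress and senescence factor of the NAC family (chromosome 3, 5236643 to 5236990), held 337, 75 and 81 reads in gFLM-GFP, against 13, 2 and 19 in the control (2.75 ± 0.51, adjusted p = 3.51e-06). The region in the 3' UTR of HSFB2A, a class B heat shock factor gene (chromosome 5, 24917178 to 24917566), held 170, 21 and 47 reads in gFLM-GFP, against 6, 0 and 17 in the control (2.48 ± 0.81, adjusted p = 2.12e-04). The region between DEAR2 and TOE3 had the narrowest spread of the 3 pairs among the 25, at 2.94 ± 0.20. It lies 1122 bp past the end of DEAR2, an AP2/ERF factor gene, and 3763 bp upstream of TOE3, so it falls outside both windows (chromosome 5, 26807854 to 26808171). It held 236, 34 and 87 reads in gFLM-GFP, against 14, 0 and 12 in the control.

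Of the 25, 6 more lay near genes with named products. A region 117 bp past the end of SNX1, a sorting nexin gene of endosomal recycling, and 2 bp upstream of AT5G06130 stood at 3.01 ± 0.98. A region 2144 bp upstream of XTH28, a cell wall remodelling enzyme gene, stood at 2.21 ± 0.50. That 805 bp past the end of MDAR6, a gene of ascorbate recycling, and 299 bp upstream of AT1G63950 stood at 2.59 ± 0.89. A region 375 bp upstream of AtCDC48B, an AAA-type ATPase gene, stood at 2.44 ± 1.15. Another, 405 bp upstream of AT4G14720 (PEAPOD 2, which restrains leaf growth), stood at 2.34 ± 1.24. The region 2334 bp upstream of ML1 (MEI2-like 1, an RNA-binding protein gene) and 1562 bp upstream of AT5G61970 stood at 2.13 ± 0.27. The adjusted p of these 6 ran from 5.96e-07 at SNX1 to 5.52e-04 at ML1.

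The remaining regions of the 25 are named by locus. Those centred in genes were in the 3' UTR of AT4G35510 (3.01 ± 0.90), in the 5' UTR of AT5G58900 (3.06 ± 0.27) and in the 3' UTRs where AT5G38600 and AT5G38610 meet (2.97 ± 0.70). Intergenic ones were next to AT5G39960 and AT5G39970 (2.85 ± 1.29), AT3G03456 and AT3G03460 (2.74 ± 0.34), AT1G72500 (2.60 ± 1.03), AT3G27325 (2.60 ± 1.44) and AT5G28410 (2.24 ± 1.00). The region 173 bp upstream of AT4G16680 was the 1 of the 25 whose groups overlapped. It held 221, 4 and 76 reads in gFLM-GFP, against 16, 0 and 8 in the control, and its ratio in pair 2 was 0.20 beside 2.44 and 3.43 (adjusted p = 3.49e-05).

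**Figure D3:**
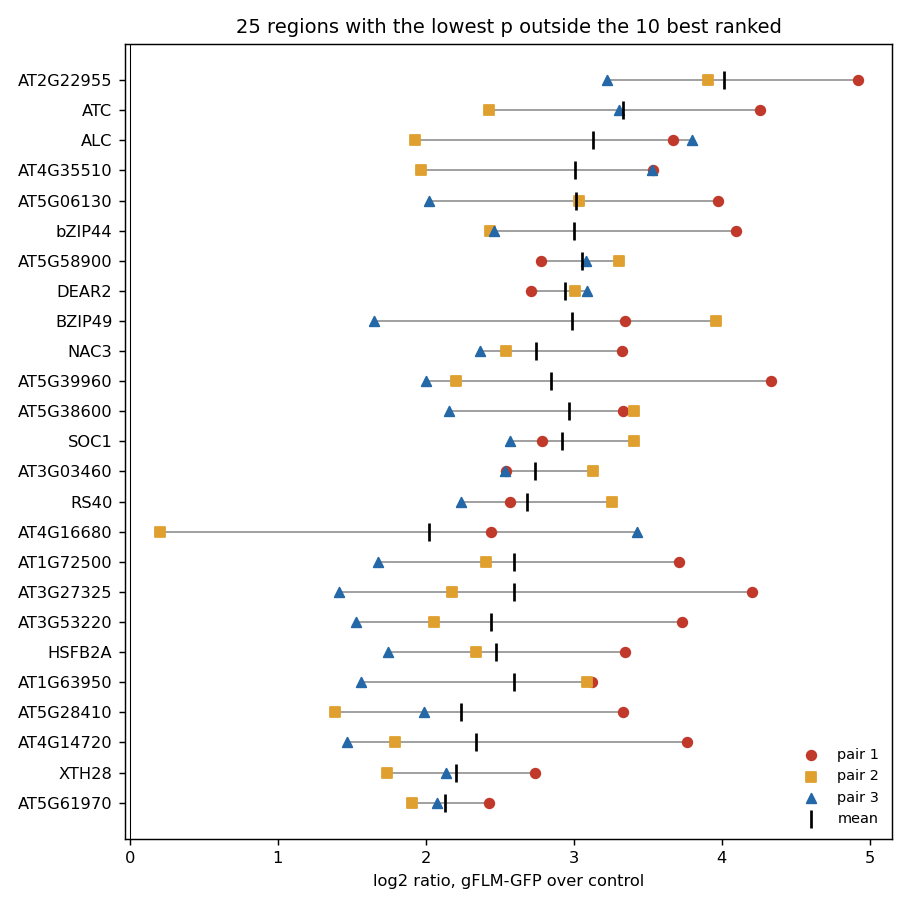
Log2 ratio of gFLM-GFP to control in pair 1 (circles), pair 2 (squares) and pair 3 (triangles) with their mean (bars) for the 25 regions with the lowest p outside the 10 best ranked, lowest p at the top and each labelled by the gene at its centre or the nearest gene. Means run from 2.02 to 4.01, every single ratio is above 0, and the lowest is 0.20 at AT4G16680.

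By the same window, the 114 regions were assigned to 155 genes. There were 12 regions with no gene in the window, 50 with 1 and 52 with more. Of these assignments 27 placed the region inside the gene, 94 upstream and 34 past its end.

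Further called regions lay close to genes with known roles, singled out after their values were seen. GL3, a bHLH gene of trichome formation, had a region 101 bp upstream (chromosome 5, 16529168 to 16529540) with 118, 10 and 25 reads in gFLM-GFP, against 7, 0 and 11 in the control (1.80 ± 0.72, adjusted p = 0.00335). SNRK2.3, a kinase of abscisic acid signalling, had one 4 bp upstream (chromosome 5, 26710431 to 26710670) with 96, 12 and 17 reads in gFLM-GFP, against 5, 0 and 13 in the control (1.67 ± 1.03, adjusted p = 0.0226). PYR1, an abscisic acid receptor gene, had one 47 bp past its end (chromosome 4, 9929444 to 9929687) with 97, 9 and 20 reads in gFLM-GFP, against 4, 0 and 7 in the control (1.98 ± 0.94, adjusted p = 6.84e-04). Neither SNRK2.3 nor PYR1 was in the abscisic acid list. BZO2H3, a bZIP gene of energy signalling, had one 80 bp upstream (1.75 ± 0.66, adjusted p = 0.0116).

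Some called regions were assigned to flowering genes that the flowering list did not hold, also singled out after their values were seen. That in the 5' UTR of VEL1, a relative of VIN3, stood at 1.46 ± 1.35 (adjusted p = 0.0280). The region 2583 bp upstream of FBH4, an activator of CO, stood at 1.53 ± 0.47 (0.0445). That 2875 bp upstream of FIO1, an RNA methyltransferase gene, lay 326 bp upstream of GRP2B and stood at 1.82 ± 0.40 (0.00575). The region 2331 bp upstream of DNF, which represses CO, was centred in KRP6, a cell cycle inhibitor gene, and stood at 1.84 ± 0.69 (0.00384).

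By class of place, though not by distance to a gene start, the 114 regions resembled all tested regions. Centres were intergenic at 88 (77.2%, 95% Wilson interval 68.7 to 83.9), against 78.0% of all tested regions. A 5' UTR held 9 (7.89%, against 5.85%), a 3' UTR 8 (7.02%, against 4.62%), an intron 6 (5.26%, against 4.18%) and a coding exon 3 (2.63%, against 5.89%). The intervals of these shares, which count regions and leave out the spread between libraries, contained the value of all tested regions in each of these classes. Of all deposited regions, before the filter on reads, 62.5% were intergenic and 15.1% were centred in a coding exon. Median ratios by place ran from 1.84 in 5' UTRs to 2.11 in 3' UTRs. Of the 88 intergenic regions 52 lay between genes in tandem (59.1%, against 52.6%), 29 between divergent genes (33.0%, against 37.5%) and 7 between convergent genes (7.95%, against 9.71%). The 114 spread over chromosomes 1 to 5 with 24, 16, 26, 14 and 34.

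The share of called regions near a gene start was below that of tested regions and close to that of all deposited regions. A gene start downstream of the region centre was within 500 bp at 34 of the 114 (29.8%), against 45.2% of tested and 30.9% of all deposited regions. It was within 1000 bp at 46 (40.4%), against 55.7% and 40.5%, and within 3000 bp at 78 (68.4%), against 74.9% and 64.8%. The median distance, where the nearest gene on a side points away from the region, was 1463 bp over the 114, 412 bp over all tested regions and 1010 bp over all deposited regions. This is a description with no test. The regions were also wider, with a median of 337.5 bp against 288.0 bp.

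**Figure D4:**
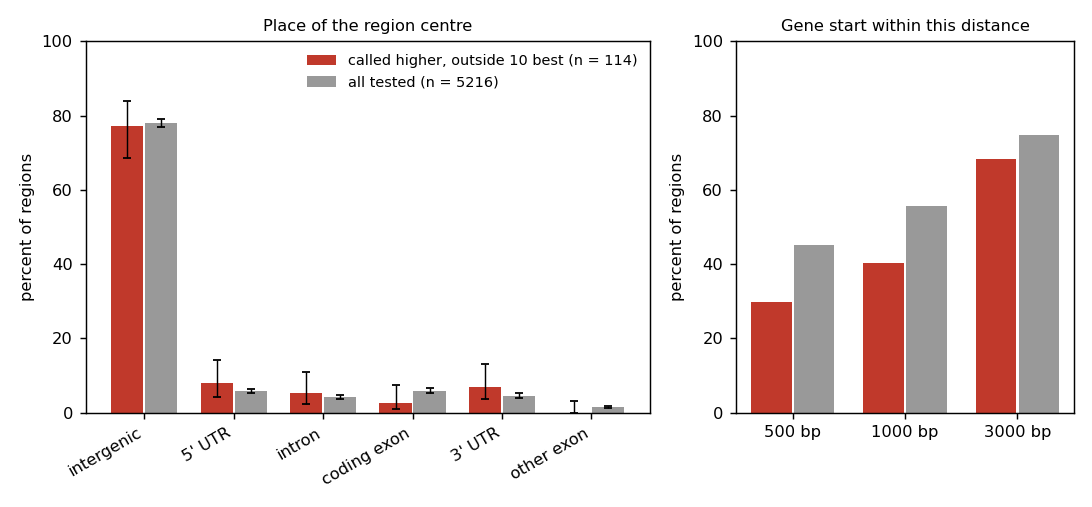
Percent of regions by the place of their centre (left) and with a gene start within 500, 1000 or 3000 bp downstream of the centre (right), for the 114 regions called higher outside the 10 best ranked and for all 5216 tested regions, with 95% Wilson intervals as whiskers on the left. The shares by place are alike, with 77.2% and 78.0% intergenic, and the share within 500 bp of a start is 29.8% for the called and 45.2% for the tested regions.

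The regions were not chosen on the iFLMbeta libraries, 2 GFP and 2 control libraries of an FLM splice variant from seedlings grown for 10 days at 23 °C. Of the 114 regions 109 overlapped a region of the iFLMbeta table (95.6%), against 22.5% of all tested regions. At these 109 the log2 ratio of the iFLMbeta group means had a median of 0.98, was above 0 at 106 and above 1 at 53 (48.6%). Over all 1173 tested regions with an overlap the median was 0.13, 708 were above 0 and 11.1% were above 1. The ratio could be read only where the authors had listed an iFLMbeta region. Both iFLMbeta GFP columns exceeded both iFLMbeta control columns at 85 of the 109 (78.0%), against 25.3% of the tested regions with an overlap. Construct, age and temperature all differ between the experiments, so their parts cannot be told apart. Both used an anti-GFP antibody and untagged controls of their own.

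Single regions differed in how their iFLMbeta ratio compared with that in gFLM, and these differences were not tested. The ACA7 region held 57 and 66 reads in the iFLMbeta GFP columns, against 10 and 4 in its control columns, and its ratio was 4.01 in gFLM and 1.87 in iFLMbeta. The DEAR2 region held 83 and 78 reads, against 9 and 0 in the controls (ratios of 2.94 in gFLM and 3.15 in iFLMbeta). The ATC region held 155 and 159 reads, against 11 and 2 in the controls (3.33 in gFLM and 3.45 in iFLMbeta). At AT4G35510 the ratio was 3.01 in gFLM and 0.64 in iFLMbeta, with 58 and 75 iFLMbeta GFP reads against 22 and 13 control reads. The PYR1 region was among the 5 of the 114 with no overlapping iFLMbeta region.

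**Figure D5:**
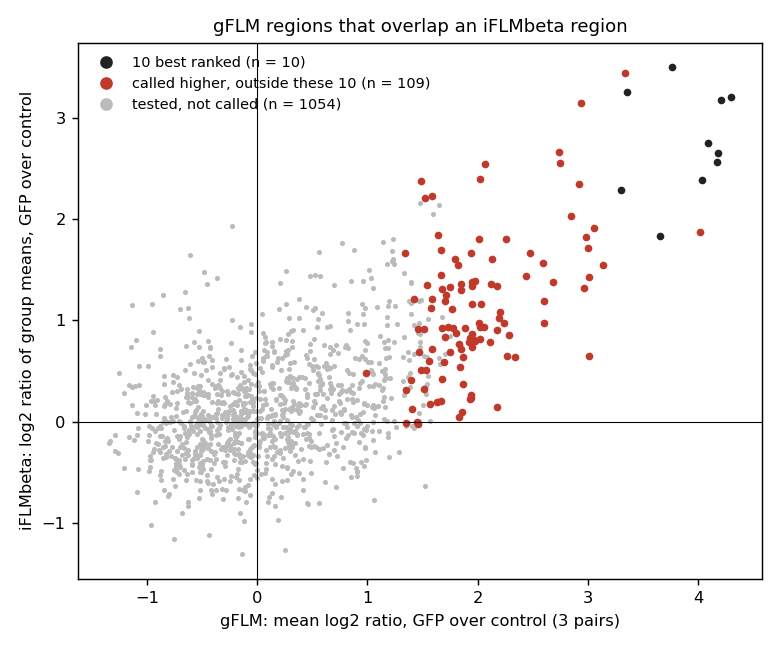
Mean log2 ratio in gFLM (horizontal) and log2 ratio of group means in the overlapping iFLMbeta region (vertical) for tested gFLM regions that overlap an iFLMbeta region. Of the 109 called regions outside the 10 best ranked 106 lie above 0 in iFLMbeta, with a median of 0.98. Of all 1173 tested regions with an overlap 708 lie above 0, with a median of 0.13.

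After scaling, GFP and control libraries overlapped at 3 of the 4 regions called lower, all except that at TBL16, and none of the 4 was called without the block. That between SNRK2.4, a stress kinase gene, and TMN1, an endomembrane protein gene, held 55, 7 and 1 reads in gFLM-GFP, against 68, 2 and 28 in the control (-1.93 ± 1.45, adjusted p = 0.0188). The others lay 506 bp upstream of TBL16, 652 bp upstream of AT2G46380 and 857 bp upstream of PAB8, a poly(A)-binding protein gene, at -2.05, -1.91 and -1.84. At 3 of the 4, all except AT2G46380, GFP replicate 3 held 2 reads or fewer, against 19 to 28 in its control.

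The threshold fell in a dense run of regions. Just inside it were regions at DPA4, a repressor of leaf margin outgrowth (0.99 ± 1.87, adjusted p = 0.0493), between AT1G01150 and GIF2, a growth coactivator gene (1.42 ± 0.48, 0.0497), and 1295 bp upstream of WRKY60 (1.41 ± 0.71, 0.0499). Just outside were the 3' UTR of EXPB3, an expansin gene (1.41 ± 0.86, 0.0527), a region 5018 bp upstream of DPA4 (1.60 ± 0.28, 0.0535) and one 2016 bp upstream of SQP1, a squalene monooxygenase gene (1.47 ± 0.53, 0.0538).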

How the data were processed

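The values used are the deposited read counts per region, whole numbers with no normalization, together with the authors' rank of each region, a score that orders regions by the rank product over the replicates, per the file headers and the column notes deposited with them. Reads were mapped to TAIR10 per the submitters' processing notes. Per the labels' protocols, libraries had 18 PCR cycles and Illumina sequencing. Aligner, peak caller and duplicate handling: not given in the sources used here. Reads carry no molecular identifiers, and intervals cover counting of regions only. All 14 columns of read counts were tied to a sample or group.

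Genes and distances from region centres are the authors' annotation. Strands missing from cut rows were taken from other rows that name the same gene. The distance to the next gene at higher coordinates was missing for 1218 regions and was not restored. At those regions that gene was neither assigned nor counted as a near gene start. RefSeq's gene table (TAIR10.1) gave names only, for 152 of the 155 assigned genes and all 177 genes of the 9 lists.

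Regions on chromosomes 1 to 5 (19879 of 19893) were fitted with edgeR 4.0.16 (R 4.3.3). Library sizes were column sums, filterByExpr had a minimum count of 10, and the replicate number was a block. Deviations from group means in pairs of the same number correlated at 0.515, 0.244 and 0.117, so the numbers were taken to pair the libraries. Pairs of unlike number ran from -0.358 to 0.065, so pair 3 stood little above the highest of these. Deviations within a group sum to 0, so these values are not independent. A region was called at an adjusted p of 0.05 or less. On simulated counts with known changes (5995 regions tested) the fit recovered 4.0% of 2-fold, 80.0% of 4-fold and 100.0% of 8-fold changes with 6 false calls. The simulation gave all regions the same spread and had no effect of the pairs, so these rates need not hold for the real counts. The text names the 25 lowest p outside the 10 best ranked, list genes with a called region, regions called lower and the 3 regions on either side of the threshold. Uncalled genes of the lists that are given with values, such as TOE3, PIF3, RGA and JAZ9, follow none of these rules. They were picked with their values known. Names from outside the lists and these rules are marked as chosen after their values were seen. The members, gene lists, block, scaling and tests were all chosen with earlier results of these data known, including the counts of calls with and without the block. Alternatives were no block, TMM, DESeq2 1.42.0, other filters, each pair left out, another pseudocount, another centring, a 1 kb window and a stricter overlap.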

Additional observations from a re-analysis of the deposited data

How the results depend on the processing

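Without the replicate block 25 regions were called higher and 0 lower, against 124 and 4 with it, and all 25 were shared. Without a filter on low counts the numbers were 81 and 0. TMM called 158 and 0, DESeq2 98 and 1, and a filter of 20 reads in every library of a group 100 and 0 of 149 tested. Among the 124 calls, 124 were shared with TMM, 94 with DESeq2, 81 with no filter and 81 with the stricter filter, where 43 were not tested. Leaving out pairs gave 0 to 120 regions called higher and 0 to 19 called lower. Without pair 1 the 0 calls came with 88 higher and 24 lower at an unadjusted p under 0.05. TMM moved the median log2 fold change of tested regions to 0.04, against -0.14 with column sums. The list genes with a called region numbered 9, 6 to 12 under other settings with all pairs, and 0 to 9 with a pair left out. A ratio above 1 in every pair, a rule chosen after seeing the data, was met by 92 regions. The share of called regions that overlap an iFLMbeta region was 96.0%. It was 100% without the block and with DESeq2, 98.8% without a filter, 98.0% with the stricter filter and 93.7% with TMM. By the stricter overlap it was 91.9%, and with a pair left out 95.8% to 100%. The intergenic share stayed within 71.4% to 76.6% over all settings that gave calls. Of 49 mean ratios of named regions a pseudocount of 5 moved 23, and centring on the median moved 6, by more than their SD, none past 0. Precision in pair 2 is limited by the few reads of control replicate 2. Windows around region sequences were not run, since no genome was used here. The cause of these differences was not tested.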

Other observations

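The called regions given here lie outside the 10 best ranked and were picked out after their values were seen, so no test was run on them as a group. TT7 encodes the flavonoid 3'-hydroxylase, and its region is centred in an intron (chromosome 5, 2561214 to 2561492). It held 69, 20 and 17 reads in gFLM-GFP, against 6, 0 and 6 in the control, with a narrow spread of ratios (2.01 ± 0.30, adjusted p = 0.00507 by edgeR). MYB114 and MYB90 are neighbouring genes of anthocyanin-activating MYB factors. A region between them, 2244 bp past the end of MYB114 and 3222 bp upstream of MYB90, held 113, 12 and 36 reads in gFLM-GFP, against 8, 0 and 12 in the control (1.94 ± 0.42, adjusted p = 0.00198). TTG1, which works with bHLH and MYB factors in both pigment and trichome formation, lies 3818 bp from a region that is 2167 bp upstream of DMR6, an immunity-related oxygenase gene. That region held 187, 39 and 36 reads in gFLM-GFP, against 5, 2 and 16 in the control (2.26 ± 1.25, adjusted p = 6.27e-04). The regions at MYB90, MYB114 and TTG1 lie beyond the window used to assign genes. MYB114 and MYB90 are close relatives in a gene cluster, and how reads that fit more than 1 place were handled is not stated, so the value there is uncertain.

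Other called regions, also picked out after their values were seen, lay in or near genes with named products. BXL1, a xylosidase gene, had one in an intron at 1.67 ± 0.88 (adjusted p = 0.0267), with 131, 30 and 16 reads in gFLM-GFP, against 9, 1 and 12 in the control. XYL1, another xylosidase gene, had one in an intron at 1.45 ± 0.80 (adjusted p = 0.0381). SKU5, a gene of directed root growth, had one in its 3' UTR with 145, 21 and 36 reads in gFLM-GFP, against 15, 0 and 7 in the control (2.27 ± 0.32, adjusted p = 9.67e-04). LOX6, a lipoxygenase gene of the jasmonate pathway that the jasmonate list did not hold, had one in an intron at 2.18 ± 1.27 (adjusted p = 0.0068). A region 2049 bp past the end of NCED3, the stress-induced enzyme of abscisic acid synthesis, held 66, 22 and 37 reads in gFLM-GFP, against 5, 0 and 17 in the control (2.01 ± 0.53, adjusted p = 0.00816). It lies outside the window of NCED3. MIR169a, a microRNA gene, had one 903 bp upstream at 1.58 ± 1.04 (adjusted p = 0.0195).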
